A study of Mus musculus with 18 samples.

Results

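Mouse bone marrow cells homozygous for a Fabp4 knockout (KO) were compared with cells heterozygous for it (HET), both from a set labelled as sorted from vitro bone marrow (in vitro below). The comparison held 6 of the 18 libraries of the series, 3 KO and 3 HET, and 10493 autosomal genes of the 22017 genes in the in vitro table. These were the genes on numbered chromosomes with an FPKM (fragments per kilobase of transcript, scaled to the number of mapped fragments in the library) of at least 1 in at least 3 of the 9 in vitro libraries. The other 3 in vitro libraries were wild type for Fabp4 (WT) and are given beside most results. Some genes that were not called are given without WT values. Both compared genotypes carry a mutant Fabp4 allele, so a heterozygous group, not an intact one, is the reference here. The labels name no strain, age, sex, sorted population, culture or further agent, nor the design of the Fabp4 allele. The study states 3 mice for each genotype without tying each library to a mouse, so the p-values below measure the spread between these libraries, which may be technical.

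Fabp4 encodes a small cytosolic protein that carries fatty acids and is abundant in adipocytes and macrophages. Its relative Fabp5 carries the same kinds of ligand and delivers some of them to the nuclear receptor PPARD. The series title concerns leukemia stem cells and normal hematopoietic stem cells, the self-renewing cells from which blood lineages, including granulocytes and monocytes, arise.

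The KO and HET libraries had an estimated depth of 30.2 to 35.1 M fragments and any 2 of them had a Spearman coefficient of 0.965 to 0.970 over genes (15 pairs). All 9 libraries carried genes of granulocyte precursors at high levels. The 19 autosomal genes of the primary granule list summed to 8877 to 9187 FPKM in HET and 7266 to 11010 in KO, against 17.8 to 20.8 and 22.7 to 25.8 for 14 B cell genes. KO library 2 stood apart from the other KO libraries in the primary granule genes, and HET library 1 from the other HET libraries in HIF target and eosinophil genes, so results that turn on them are given without them. Transcripts that mark donor sex differed between the groups. The summed level of 4 Y genes was 25.7 to 30.3 FPKM in HET, 16.1 to 18.1 in KO and 8.68 to 11.1 in WT. The X inactivation RNA Xist was at 12.3 to 18.2 FPKM in HET, 25.2 to 43.2 in KO and 31.43 to 49.65 in WT. Donor sex and genotype therefore cannot be told apart for any difference below.

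Fabp4, the targeted gene, was too low to check the labels. The HET libraries listed it at 0, 0.0676 and 0 FPKM and the KO libraries at 0 in all 3 cases, with 0, 0.0326 and 0.330 in WT. The KO minus HET difference was -0.0225 FPKM. Its exact two-sided permutation p = 1 (n = 3 per group) was fixed by the values. With a single value above 0, every relabelling gives a difference of the same size, so the test cannot inform. Fabp5, which lies on chromosome 3, 192 kb from Fabp4, was well measured. It was at 76.7, 74.7 and 69.7 FPKM in HET, 44.1, 48.8 and 48.4 in KO and 75.1, 93.6 and 100.2 in WT, so all KO values were below all others. The KO minus HET difference on the scale of log2(FPKM + 1) was -0.64 ± 0.10 (SE, limma adjusted p = 0.00590, and under 0.05 in all 20 alternatives). On this scale, used throughout, changes of low genes are understated. Among 9 family genes with values 2 were tested, and the other, the retinoic acid carrier gene Crabp2, was not called. It was low, at 0.511, 0.260 and 0.109 FPKM in HET, 1.06, 0.554 and 1.63 in KO and 1.57, 0.751 and 0.0352 in WT. Its log2 change was 0.67, opposite in sign to that of Fabp5.

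By limma, 204 of 10493 autosomal genes (1.94%) changed between KO and HET at an adjusted p under 0.05, 62 higher in KO (0.591%) and 142 lower (1.35%). Falls also led among the large changes, with 36 genes at least 2-fold lower and 8 at least 2-fold higher. The 3 KO and 3 HET values of a gene did not overlap for 22.4% of all tested genes and for all 204 called genes. At unadjusted p under 0.05 there were 1391 genes, and the median change of all autosomal genes was -0.00232 on the log2 scale. The count rests on single libraries. It was 81 without HET 2, 68 without HET 3, 109 without KO 1, 96 without KO 3 and 331 without WT 1, and 151 without HET 1 and 205 without KO 2. The share of calls that were higher in KO was 30.4%. It was 40.7% without HET 2 and 39.7% without HET 3, and 22.5% without HET 1, 23.4% without KO 2 and 25.0% without KO 3. Of the called genes 16 passed the filter only through the HET libraries and fell, and 6 only through the KO libraries and rose. These had to differ, and 126 lower and 56 higher genes were left without them.

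**Figure D1:**
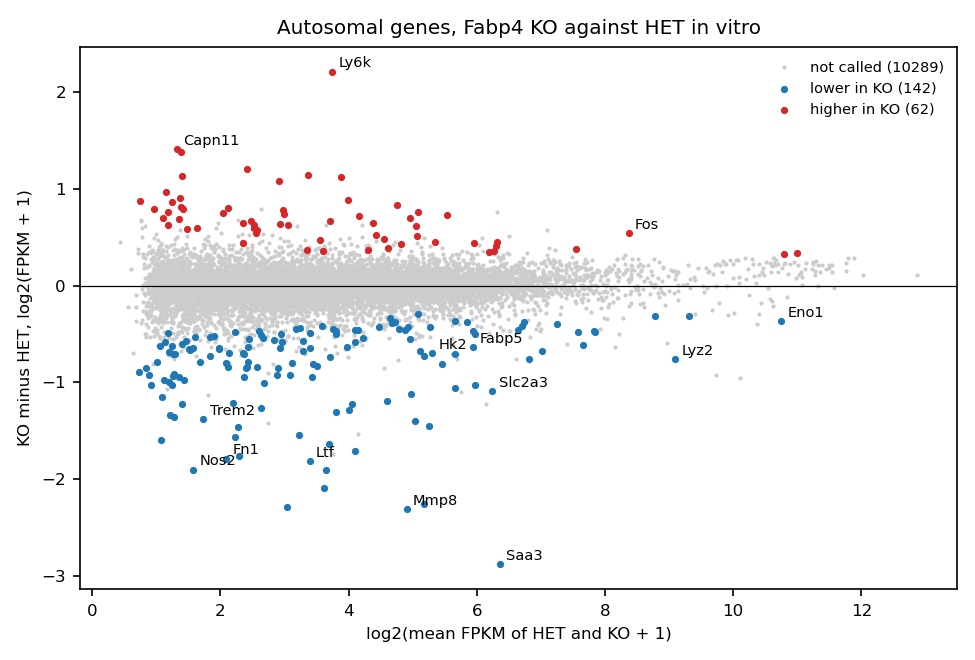
Each point is an autosomal gene, with its mean level in HET and KO on the horizontal axis as log2(FPKM + 1) and its KO minus HET difference on the vertical axis in the same log2 unit. The 142 genes called lower in KO (blue) reach -2.88 at Saa3, and the 62 called higher (red) reach 2.21 at Ly6k.

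The gene lists below were chosen with earlier results of these data known, so each is described by its counts and median beside those of all genes. Of all 10493 tested genes 1.35% fell, 0.591% rose and 1391 had an unadjusted p under 0.05 in either direction by limma. Part of the secondary and tertiary granule list of neutrophils was lower in KO than in HET cells. Of 36 tested members 13 fell while 0 rose (limma, with 1.35% of all genes falling). The list also holds genes whose products are not granule contents. Such are S100a8, S100a9, Saa3, Ifitm6, Ncf4 and the protease inhibitor genes Stfa1, Stfa2l1 and Stfa3. Saa3, Ifitm6, Ncf4 and these inhibitor genes are among those that fell, so the count is not one of granule contents alone. The inhibitor genes are taken up below. At unadjusted p under 0.05 there were 22 lower and 0 higher. The median log2 change of the list was -0.70. These granules form late in neutrophil development and hold matrix-degrading enzymes, iron-binding proteins and antimicrobial proteins. The 40 autosomal members summed to 4110 to 6449 FPKM in HET, 3089 to 4114 in KO and 1815 to 3506 in WT. In bulk RNA, fewer cells of a type and less of its RNA per cell cannot be told apart.

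Mmp8, the neutrophil collagenase, was at 45.5, 52.3 and 48.1 FPKM in HET and at 12.3, 5.96 and 9.71 in KO. In WT it was at 7.98, 9.09 and 9.27, so the KO values lay around those of WT and HET stood alone. The KO minus HET log2 change was -2.31 ± 0.18 (SE, limma adjusted p = 6.22e-05, n = 3 per group). Saa3, an acute-phase apolipoprotein gene, had the largest fall of the named genes. It was at 126, 145 and 154 FPKM in HET, 29.1, 9.57 and 21.7 in KO and 25.4, 27.1 and 42.6 in WT, with a log2 change of -2.88 ± 0.33 (adjusted p = 0.00181). The iron-binding lactoferrin gene Ltf was at 12.1, 16.9 and 16.8 FPKM in HET, 4.36, 2.17 and 4.70 in KO and 1.07, 4.02 and 4.66 in WT (log2 change -1.81 ± 0.36, adjusted p = 0.0358). Its call ended without HET 2 or 3 or any KO library, and with a pseudocount of 0.1 or no filter (adjusted p up to 0.146). In these genes every HET library stood above every KO and WT library.

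The other genes of this list that fell also had HET above both other genotypes. The small inhibitor gene Wfdc17 went from 32.9 ± 4.36 FPKM in HET to 13.8 ± 0.986 in KO (SD, n = 3), with 9.71 in WT (log2 change -1.19, limma adjusted p = 0.000210). Ifitm6, of a family of membrane proteins that restrict viruses, went from 25.2 ± 1.75 to 7.13 ± 1.64, with 8.55 in WT (-1.71, 0.000591). Smaller falls in relation to their error were those of Wfdc21 (46.5 in HET, 17.1 in KO and 14.2 in WT, -1.40, 0.00356) and the myeloid surface gene Mcemp1 (19.01, 7.03 and 5.42, -1.31, 0.0106). The chitinase-like gene Chil3 (55.2, 19.1 and 15.5 FPKM, -1.46, 0.0402) and the neutrophil surface gene Cd177 (5.41, 1.76 and 1.73, -1.22, 0.0184) fell too, as did the oxidase subunit gene Ncf4 (72.8, 51.4 and 55.6, -0.50, 0.00824). Leaving out HET 3, KO 1 or KO 3 ended the call of Mcemp1 (up to 0.0587). That of Ncf4 was lost without any one of HET 2, HET 3, KO 1 and KO 3 (up to 0.0616). That of Cd177 ended without HET 2 or 3 or KO 2 or 3 and with a pseudocount of 0.1 or no filter (up to 0.109). That of Chil3 ended without HET 2, HET 3 or any KO library, with no filter, with the filter at an FPKM of 5 and after quantile normalization (up to 0.200).

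Other genes of the list did not pass the threshold. The calcium-binding alarmin gene S100a8 was at 714, 1211 and 1447 FPKM in HET, 500.2, 751 and 484 in KO and 202, 503 and 572 in WT, and KO 2 lay above HET 1 (log2 change -0.93, limma adjusted p = 0.335). Its partner S100a9 (-0.96, 0.404), the cathelicidin gene Camp (-1.10, 0.365) and the iron-scavenging lipocalin gene Lcn2 (-0.53, 0.0829) had values of the same sign. Without WT 1 Camp passed (adjusted p = 0.0193), and Lcn2 passed without WT 1 (0.0455) or WT 3 (0.0271). Ngp, another gene of the list, was not called in the main fit or in any alternative (limma adjusted p from 0.292 to 0.923 over the alternatives). The number of genes of this list that fell was 7 without HET 3 or KO 3, 8 without HET 2 or KO 1 and 18 without WT 1, and 0 rose in each of these.

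Primary granule genes, which are made earlier in the lineage, were mostly not called. Of 17 tested 1 fell and 0 rose, where 1.35% of all genes fell (median -0.11, and 3 lower and 1 higher at unadjusted p under 0.05). Without KO 2 there were 5 falls and the median was -0.29, without WT 1 or WT 3 there were 2, and without HET 2, HET 3, KO 1 or KO 3 there were 0. The gene that fell was Lyz2, lysozyme of myeloid cells, at 591, 719.6 and 739 FPKM in HET, 366, 505 and 349 in KO and 242, 278 and 320.3 in WT (log2 change -0.76 ± 0.15, limma adjusted p = 0.0191). That call ended without HET 2, HET 3, KO 1 or KO 3 and with no filter (up to 0.112). The myeloperoxidase gene Mpo was at 1705, 1623 and 1677 FPKM in HET and at 1224, 2074 and 1186 in KO, where library 2 stood above and the other 2 below all HET values. Its log2 change was -0.21 (adjusted p = 0.696), and without KO 2 it was -0.47 (adjusted p = 0.00388). The elastase gene Elane showed the same split, with 895, 2062 and 869.6 FPKM in KO against 1365, 1366 and 1574 in HET (-0.29, 0.767, and -0.70, 0.0024 without KO 2). The log2 values of the proteases Prtn3 and Ctsg were -0.00 and 0.10 (adjusted p = 0.999 and 0.850).

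**Figure D2:**
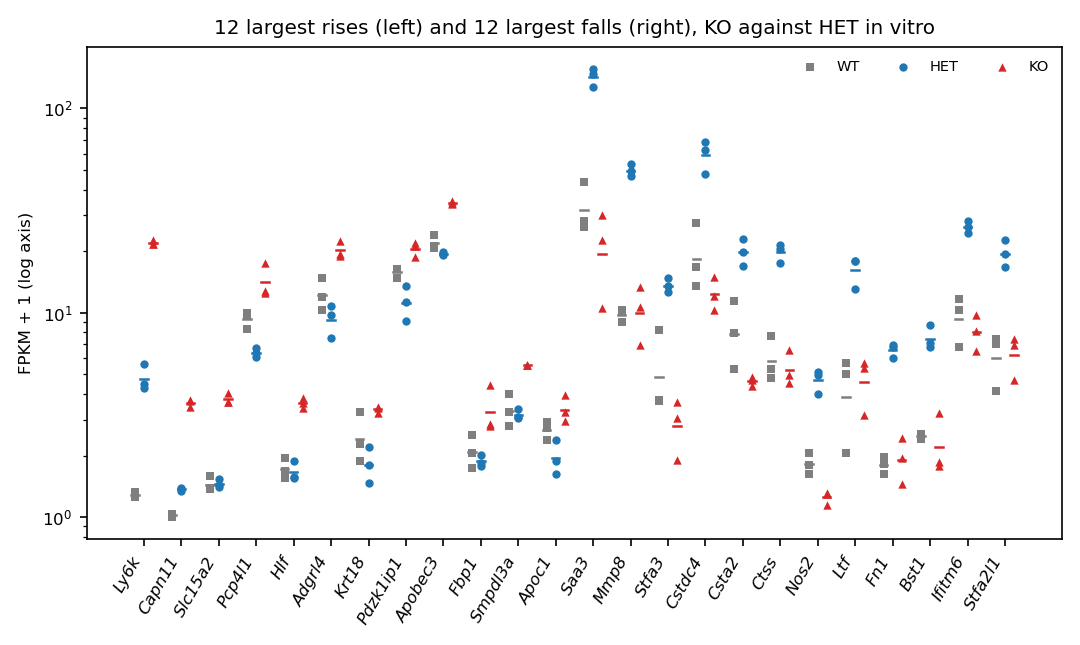
The 12 largest rises (left) and 12 largest falls (right) by the naming rule are shown as FPKM + 1 in each of the 3 WT (squares), 3 HET (circles) and 3 KO (triangles) libraries on a log axis, with horizontal bars at the mean of the log values. Among the falls HET stands above both other genotypes, as for Mmp8, and among the rises KO stands above both, as for Ly6k, except Krt18, where KO and WT overlap.

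A cluster of stefin A genes on chromosome 16, which encode small inhibitors of cysteine proteases such as cathepsins, fell in part. Of the 10 genes of the cluster 7 were tested and 5 of these fell, where 1.35% of all tested genes fell. Stfa3 was at 11.6, 13.8 and 12.4 FPKM in HET, 2.68, 0.908 and 2.07 in KO and 2.70, 2.74 and 7.24 in WT (log2 change -2.29 ± 0.31, limma adjusted p = 0.00289). Cstdc4 fell by 2.26 (58.6 ± 10.8 FPKM in HET, 11.4 ± 2.31 in KO and 18.2 in WT, adjusted p = 0.000674) and Csta2 by 2.09 (18.9 ± 2.94, 3.64 ± 0.248 and 7.24, 0.000510) on the log2 scale. Stfa2l1 fell by 1.64 (18.6 ± 3.01, 5.36 ± 1.46 and 5.20, 0.00278). Stfa1 fell by 1.12 (42.1 ± 7.56, 19.1 ± 5.30 and 24.4, 0.0191), and not without HET 2, HET 3, KO 1 or KO 3 or with no filter (up to 0.110). Cstdc5 (97.7 FPKM in HET, 41.0 in KO and 41.1 in WT, -1.23, 0.116, and 0.00384 without WT 1) did not pass. Neither did Stfa2 (8.85, 2.56 and 2.55, -1.42, 0.144). In each of the 5 that fell all HET values were above all KO and WT values. The genes are near copies of each other, so reads may be split between them and the values of single members are uncertain. The cluster was set out after its values were seen.

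Monocyte and macrophage markers were lower in KO than in HET, with 7 of 20 tested members falling and 0 rising (limma, with 1.35% of all genes falling). The list median was -0.37, and 11 were lower and 0 higher at unadjusted p under 0.05. The 34 autosomal members summed to 941 to 1043 FPKM in HET, 685 to 928 in KO and 650.4 to 837 in WT, and 0 of them were at 0 in all 9 libraries. Of the 7 that fell 1 passed the filter through HET alone, and 6 of 19 fell without it. The lysosomal protease gene Ctss, whose product trims the invariant chain of MHC class II, was at 16.4, 20.5 and 19.4 FPKM in HET, 5.57, 3.50 and 3.95 in KO and 4.299, 3.79 and 6.72 in WT (log2 change -1.90 ± 0.18, adjusted p = 0.000205). Fn1, fibronectin, was at 4.995, 5.81 and 5.94 FPKM in HET and 1.43, 0.460 and 0.940 in KO, with 0.810, 0.958 and 0.625 in WT (-1.79 ± 0.16, 0.000193). The lipid receptor gene Trem2 was at 3.71, 3.55 and 4.15 in HET, 1.01, 0.979 and 0.564 in KO and 0.804, 0.959 and 0.526 in WT (-1.38 ± 0.13, 0.000205). For each of these, HET stood apart and the KO and WT values overlapped.

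Csf1r, the receptor for the macrophage growth factor, fell from 7.80 ± 0.595 FPKM in HET to 2.68 ± 0.586 in KO, with 2.43 in WT (-1.27, limma adjusted p = 0.000727). The pore-forming protein gene Mpeg1 (13.2 FPKM in HET, 6.37 in KO and 4.65 in WT, -0.95, 0.00247) and the osteopontin gene Spp1 (139.8, 82.4 and 87.4, -0.76, 0.0108) fell as well. The call of Spp1 ended without any one HET library or KO 1 (up to 0.0630). The monocyte chemokine receptor gene Ccr2 was at 34.1 FPKM in HET, 26.1 in KO and 12.3 in WT, and KO against HET did not pass (-0.38, 0.0813, and 0.0476 without WT 1). Among factors that set the myeloid program, 2 that did not pass had values of 0.07 for Spi1, which encodes PU.1 (adjusted p = 0.903), and -0.06 for Cebpa (0.935). With a HET library left out 5 of 19 tested markers fell, and with any other library left out 6 to 9 of 20 did. Under the stricter filter at an FPKM of 5 it was 4 of 16.

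Surface receptors of myeloid cells were lower as well. Of 19 tested members of the lectin and inhibitory receptor list 8 fell while 0 rose (limma, with 1.35% of all genes falling). The list median was -0.44, and 12 were lower and 1 higher at unadjusted p under 0.05. Pirb, an inhibitory receptor for MHC class I, was at 21.4, 22.9 and 22.2 FPKM in HET, 11.4, 6.49 and 9.55 in KO and 4.68, 6.10 and 7.28 in WT (-1.22 ± 0.17, adjusted p = 0.00285). The activating lectin gene Clec5a was at 4.59, 4.65 and 4.52 in HET, 2.46, 1.87 and 2.02 in KO and 2.10, 1.51 and 2.03 in WT (-0.85 ± 0.11, 0.00208). HET stood above both other genotypes, which overlapped, in both genes. Clec4n, the fungal-sensing lectin Dectin-2 (2.19 FPKM in HET, 0.568 in KO and 0.584 in WT, -1.03, 0.00313), and the sialic acid receptor gene Siglece (1.56, 0.479 and 0.426, -0.79, 0.00490) also fell. The other 4 were the receptor genes Sirpa (14.6, 10.5 and 9.14, -0.44, 0.0101), Cd300lf (10.1, 5.36 and 4.304, -0.80, 0.0109), Trem1 (5.82, 2.71 and 2.85, -0.85, 0.0111) and Sirpb1a (1.30, 0.286 and 0.231, -0.85, 0.0191). Clec4n, Siglece and Sirpb1a passed the filter through HET alone, and 5 of 16 fell without them. The count was 3 of 16 tested without HET 3, 4 of 16 without HET 2, 5 of 19 without KO 3 and 3 of 13 with the filter at an FPKM of 5. Clec4n, Siglece and Sirpb1a were not tested without a HET library or under that filter. The call of Sirpa ended without HET 3, KO 1 or KO 3 (up to 0.0782) and that of Cd300lf without HET 2, HET 3 or KO 3 (0.0749). That of Trem1 ended without KO 1 (0.0527) and that of Sirpb1a without KO 3 or with a pseudocount of 0.1 (0.0949).

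Other myeloid genes came from the leading falls and smaller lists. Nos2, inducible nitric oxide synthase, was at 3.00, 4.11 and 3.97 FPKM in HET, 0.312, 0.298 and 0.144 in KO and 1.05, 0.617 and 0.805 in WT (-1.90 ± 0.13, limma adjusted p = 2.37e-05), so all KO values were below WT too. Bst1, a surface enzyme of stromal and myeloid cells, was at 5.77, 7.68 and 6.07 in HET, 2.22, 0.787 and 0.868 in KO and 1.54, 1.41 and 1.49 in WT (-1.76 ± 0.19, 0.000591). Among growth factor receptors 3 of 28 fell and 1, Flt3, rose (median -0.20), where 1.35% of all genes fell and 0.591% rose. The falls were 8 without WT 1, 6 without WT 3, 2 without HET 2 or HET 3 and 7 with only KO and HET libraries in the fit. Beside Csf1r the falls were the decoy interleukin-1 receptor Il1r2 (13.6 ± 1.48 FPKM in HET, 7.14 ± 0.365 in KO and 9.21 in WT, -0.84, 0.00323) and Csf2rb, the shared receptor chain of GM-CSF and interleukins (157 ± 16.9, 98.7 ± 19.5 and 106, -0.68, 0.0212). The call of Csf2rb ended without any one of the HET libraries and with no filter (up to 0.102). The monocyte chemokine gene Ccl2 was the single call among 24 genes of NF-kappaB signalling (5.89 ± 1.67, 2.82 ± 0.827 and 1.47, -0.85, 0.0451). It ended in 10 of 19 alternatives, among them without any one HET library, KO 2, KO 3 or WT 2 (up to 0.202). Of 24 lysosomal cathepsins and cystatins 5 fell and 0 rose, with a median of 0.01, where 1.35% of all genes fell. Stfa1 and Stfa3 among them are also counted in the granule list and the stefin cluster. The falls were 3 without HET 2, HET 3, KO 1 or KO 3. Beside Ctss, Stfa1 and Stfa3 the 5 in the main fit were Psap, which encodes the cofactors of sphingolipid breakdown (266 ± 16.7, 190 ± 6.502 and 164, -0.48, 0.00449), and the protease-activating protease gene Ctsc (28.1, 21.2 and 23.2, -0.39, 0.0402). The call of Ctsc ended in 11 of 20 alternatives, among them without any one HET or KO library or WT 2 (up to 0.180).

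Promoter sequences are shown for 3 of the myeloid genes that fell because each holds the core recognized by PU.1, a main regulator of myeloid genes, close to its start. Each line is the 250 bases before a transcript start in RefSeq on GRCm38.p6, 5′ to 3′ on the gene's own strand. This start is the outer bound of the gene for Trem2 and Wfdc17, and for Siglece it lies 11883 bases inside that bound. Capitals mark the core, GAGGAAG or, on the other strand, its reverse complement. The windows searched ran from 250 bases before to 50 after the start.
Trem2, chr17:48346151-48346400, plus strand: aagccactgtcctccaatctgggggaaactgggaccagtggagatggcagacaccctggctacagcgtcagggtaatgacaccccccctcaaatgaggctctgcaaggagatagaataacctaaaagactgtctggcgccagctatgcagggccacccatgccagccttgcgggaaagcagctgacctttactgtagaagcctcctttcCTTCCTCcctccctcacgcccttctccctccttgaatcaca
Wfdc17, chr11:83703806-83704055, plus strand: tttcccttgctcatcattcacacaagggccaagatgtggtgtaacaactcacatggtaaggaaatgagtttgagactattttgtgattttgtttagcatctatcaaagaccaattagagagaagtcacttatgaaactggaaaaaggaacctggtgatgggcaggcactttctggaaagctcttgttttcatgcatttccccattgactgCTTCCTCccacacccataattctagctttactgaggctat
Siglece, chr7:43660162-43660411, minus strand: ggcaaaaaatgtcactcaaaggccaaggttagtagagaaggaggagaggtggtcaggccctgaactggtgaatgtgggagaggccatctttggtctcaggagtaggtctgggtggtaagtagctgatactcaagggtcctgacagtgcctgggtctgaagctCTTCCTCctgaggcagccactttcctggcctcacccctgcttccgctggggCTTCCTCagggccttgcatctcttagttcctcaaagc
The core was found in 10 of the 21 genes with a window among the 28 that fell in the granule, monocyte and receptor lists (47.6%), in 17 of 42 of these lists that were not called (40.5%), and in 16% of 8554 tested genes with a window. Over all 32851 windows of the table the share was 13.6%. Trem2 and Wfdc17 have the core 34 and 33 bases before the start, and Siglece has 2 copies, the nearer 30 bases before it. A match is a description of these letters, not a measured site.

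**Figure D3:**
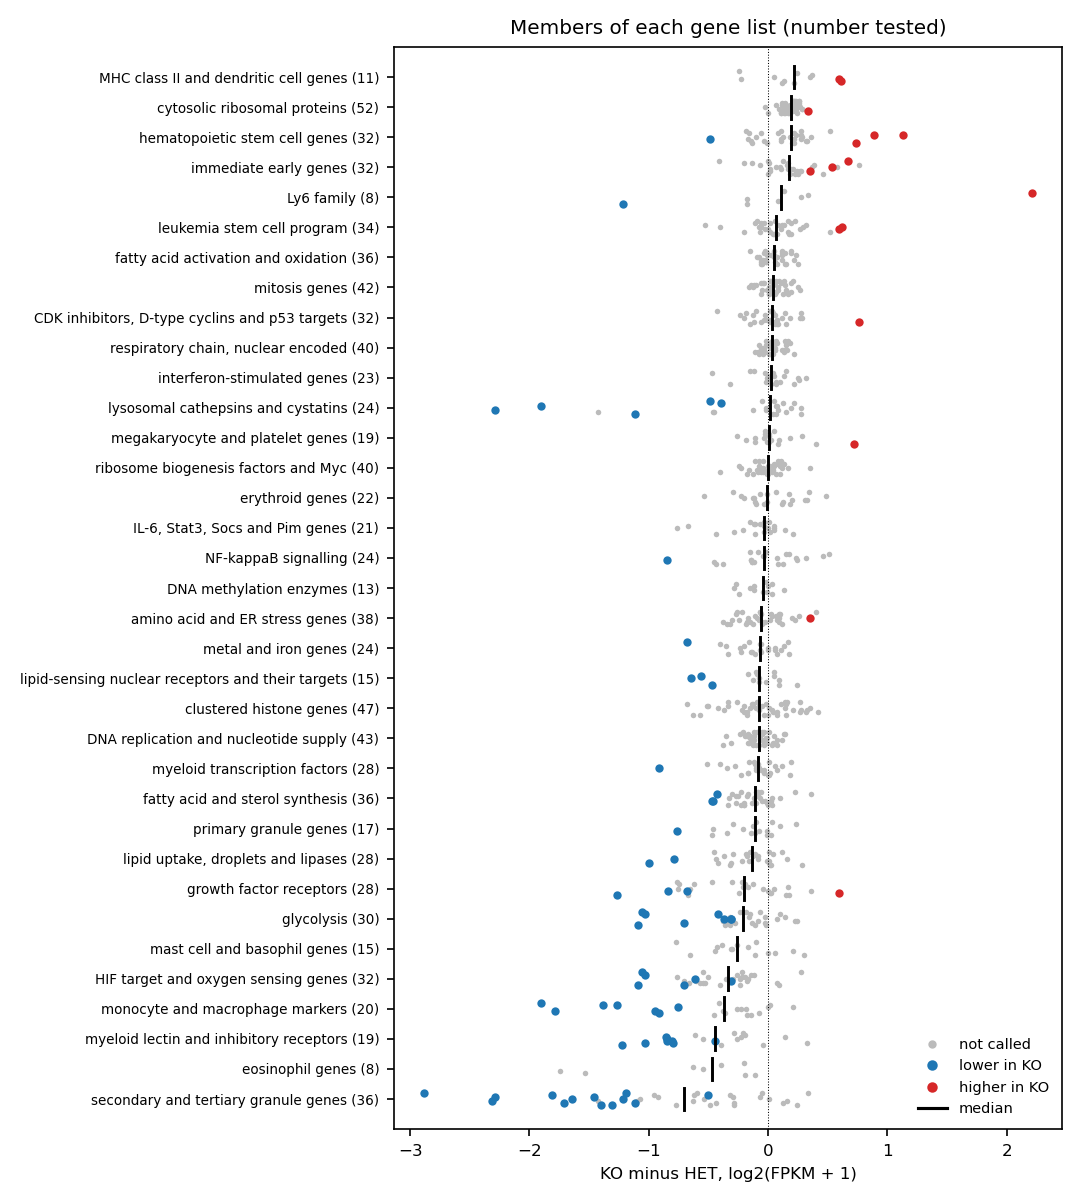
Each point is a tested member of a gene list, placed by its KO minus HET difference in log2(FPKM + 1), with genes lower in KO in blue, higher in red and not called in grey, and the list median as a black bar. Lists with at least 8 tested members are ordered by median, from -0.70 for secondary and tertiary granule genes to 0.22 for MHC class II and dendritic cell genes.

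Transcripts for taking up and breaking down glucose were also lower in KO than in HET. HIF, the hypoxia-inducible factor, is a transcription factor that accumulates when oxygen is short and raises glucose transporters and glycolytic enzymes. Of 32 tested HIF target and oxygen sensing genes 6 fell and 0 rose (limma, with 1.35% of all genes falling). Their median was -0.34, and 20 were lower and 1 higher at unadjusted p under 0.05. Of 30 glycolysis genes 8 fell and 0 rose (median -0.21, with 15 lower and 1 higher at unadjusted p), and 5 of these are in both lists. The glycolysis genes summed to 6724 to 6951 FPKM in HET, 5307 to 6050 in KO and 6996 to 7274 in WT, with a median HET minus WT log2 difference of 0.00274. The 34 autosomal HIF list genes summed to 2662 to 3397 in HET, 2227 to 2682 in KO and 3609 to 4247 in WT. In that list HET lay below WT and overlapped KO, and its median HET minus WT difference of -0.31 was close in size to that of KO minus HET. The granule and monocyte sums given above moved with the same contrast, and their part in this difference was not tested.

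The promoters of 3 of these genes are shown because each holds the hypoxia response core near its start. Capitals mark ACGTG or GCGTG, or the reverse complement where the core lies on the other strand. The lines are the 250 bases before a transcript start, as above. This is the outer bound of the gene for Slc2a1 and Hk2, and for Slc16a3 it lies 583 bases inside it.
Slc2a1, chr4:119108495-119108744, plus strand: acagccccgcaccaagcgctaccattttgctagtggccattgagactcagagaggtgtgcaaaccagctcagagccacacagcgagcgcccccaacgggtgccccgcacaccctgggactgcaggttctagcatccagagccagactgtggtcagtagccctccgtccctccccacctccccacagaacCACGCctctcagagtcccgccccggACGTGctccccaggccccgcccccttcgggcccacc
Hk2, chr6:82774455-82774704, minus strand: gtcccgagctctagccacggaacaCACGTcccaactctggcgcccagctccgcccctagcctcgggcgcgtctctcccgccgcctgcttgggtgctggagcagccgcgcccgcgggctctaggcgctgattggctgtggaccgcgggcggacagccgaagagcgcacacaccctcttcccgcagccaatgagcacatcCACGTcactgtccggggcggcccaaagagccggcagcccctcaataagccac
Slc16a3, chr11:120948817-120949066, plus strand: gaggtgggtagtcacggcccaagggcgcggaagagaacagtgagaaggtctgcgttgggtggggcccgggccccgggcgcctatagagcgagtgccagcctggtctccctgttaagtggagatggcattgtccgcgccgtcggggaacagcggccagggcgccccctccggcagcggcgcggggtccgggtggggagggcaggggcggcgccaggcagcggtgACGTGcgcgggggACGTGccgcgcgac
The core was found in all 8 genes with a window among the 9 that fell in these lists (100%), in 35 of 40 that were not called (87.5%) and in 68.1% of the 8554 tested genes with a window. These 5 letters are common, with a match in 43.8% of all 32851 windows.

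At the cell membrane, the glucose transporter gene Slc2a3 was at 76.4, 109.5 and 122 FPKM in HET, 46.2, 45.2 and 49.2 in KO and 119, 110.3 and 102 in WT. All KO values were below all others, and the KO minus HET log2 change was -1.09 ± 0.14 (limma adjusted p = 0.00155). Slc2a1, the other main glucose transporter, was at 53.3, 71.8 and 75.3 in HET, 25.8, 42.0 and 28.2 in KO and 91.4, 69.9 and 77.5 in WT (-1.06 ± 0.18, 0.00990). HET against WT, a comparison that shares the HET libraries and called 3.6% of all genes, did not pass for either (adjusted p = 0.596 and 0.413). Slc16a3, which exports lactate, was at 70.4, 87.8 and 91.6 in HET, 36.0, 50.6 and 35.2 in KO and 85.0, 85.6 and 91.7 in WT (-1.03 ± 0.13, 0.00181).

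Within the pathway, Hk2, the hexokinase that traps glucose in the cell, was at 44.7, 46.4 and 53.4 FPKM in HET, 29.2, 28.7 and 29.5 in KO and 53.9, 41.2 and 36.4 in WT (-0.70 ± 0.12, limma adjusted p = 0.0111). The phosphofructokinase gene Pfkl fell from 119 ± 5.55 in HET to 88.6 ± 3.89 in KO, with 119 in WT (-0.42, 0.0187). The enolase gene Eno1 fell from 1936 ± 34.1 to 1502 ± 174, with 1931 in WT (-0.37, 0.0359). For all 3, every KO value was below every HET and WT value. The pyruvate kinase gene Pkm fell from 702 ± 17.7 to 565 ± 11.7, with 673 in WT (-0.31, 0.0373), and the lactate dehydrogenase gene Ldha from 487 ± 9.90 to 393 ± 25.6, with 534 in WT (-0.31, 0.0358). Among the steps not called was Pgam1, the mutase before enolase (346 in HET, 274 in KO and 354 in WT, -0.34, 0.0592). It passed without WT 1, WT 3 or KO 2 (0.0455, 0.036 and 0.0187). Gapdh, an enzyme further up, was at 260.3, 235 and 269.7 (-0.15, 0.488). The log2 changes of Pfkl, Eno1, Pkm and Ldha were smaller in size than those of the transporters, a difference that was not tested.

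Of the other HIF targets, Ero1a, an oxidase of protein folding, fell from 245 ± 42.8 to 158 ± 5.27 FPKM, with 297 in WT (-0.61, limma adjusted p = 0.0412). Egln1, a prolyl hydroxylase that marks HIF for decay when oxygen is present, was at 31.3, 45.9 and 44.9 in HET, 24.7, 34.2 and 24.7 in KO and 67.1, 58.0 and 64.5 in WT, with KO 2 above HET 1 (-0.53, 0.122). Ndrg1 (64.9 FPKM in HET, 36.5 in KO and 95.6 in WT, -0.76, 0.122) and the mitophagy receptor gene Bnip3 (348, 243 and 539, -0.51, 0.255) were also not called. HET library 1 was the lowest HET library in Slc2a1, Slc2a3, Slc16a3, Egln1, Ndrg1 and Bnip3. Without it Egln1 (-0.70, 0.0356) and Ndrg1 (-1.06, 0.0058) passed, the HIF list had 8 falls and its median was -0.46. Egln1 also passed without KO 2 (-0.68, 0.0414).

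These calls rest on few libraries. With HET 2 or HET 3 left out each of the HIF and glycolysis lists had 2 falls, and with KO 3 left out each had 3. Without KO 2 the counts were 10 and 9. The HIF count was 4 without WT 2 or KO 1 and 9 without WT 1. The glycolysis count was 5 with median-ratio size factors or without WT 2, and 4 without KO 1. The calls of Slc2a3 and Slc16a3 held under all 20 alternatives. That of Slc2a1 ended without HET 2, HET 3 or KO 3 (up to 0.0688), that of Hk2 without HET 2 or HET 3 (0.0785) and that of Pfkl without HET 2, HET 3 or either of KO 1 and KO 3 (0.111). Those of Eno1, Ldha, Pkm and Ero1a ended in 10, 8, 10 and 9 of 20 alternatives, among them, for each gene, the fits that lack WT 2, HET 2, HET 3, KO 1 and KO 3 (up to 0.180, 0.191, 0.295 and 0.206).

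**Figure D4:**
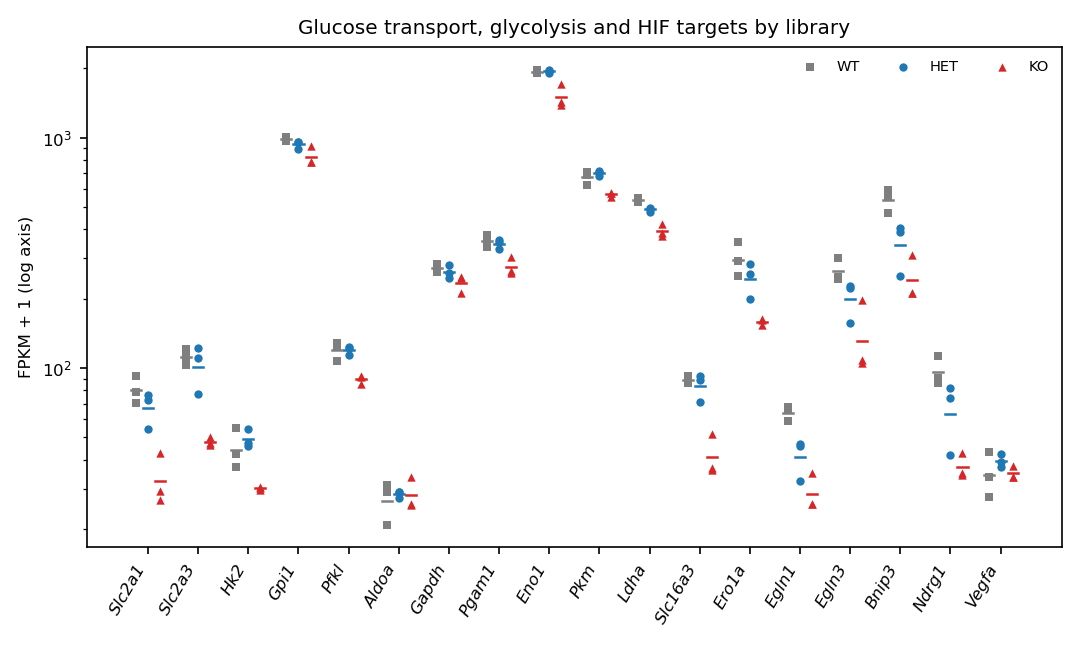
FPKM + 1 on a log axis in each WT (squares), HET (circles) and KO (triangles) library for glucose transporters, glycolytic enzymes in pathway order, the lactate exporter and other HIF targets, with bars at the mean of the log values. KO libraries lie below all HET and WT libraries for Slc2a1, Slc2a3 and Slc16a3, while HET 1 lies near the KO libraries for Egln1 and Ndrg1.

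A few genes of lipid sensing and synthesis fell with Fabp5, and 0 members of these lists rose, where 1.35% of all genes fell. Of 15 nuclear receptors and targets 3 fell, with a median of -0.08. They were Ppard, the fatty acid receptor served by Fabp5 (8.27 ± 1.32 FPKM in HET, 4.91 ± 0.391 in KO and 9.50 in WT, -0.64, limma adjusted p = 0.0114), the cholesterol exporter gene Abcg1 (6.09 ± 0.782, 4.10 ± 0.309 and 7.02, -0.47, 0.0397) and the retinoic acid receptor gene Rara (7.54 ± 1.42, 4.73 ± 0.479 and 6.02, -0.56, 0.0497). Of 36 genes of fatty acid and sterol synthesis 3 fell, with a median of -0.11. Srebf1, a transcription factor of that pathway, was at 35.8, 32.2 and 33.6 FPKM in HET, 25.3, 25.3 and 24.4 in KO and 31.5, 31.4 and 29.3 in WT (-0.43 ± 0.07, 0.00823). KO was below both other genotypes in all of its libraries. The sterol cyclase gene Lss (15.3 ± 0.781, 10.8 ± 1.34 and 13.9, -0.47, 0.0358) and the desaturase gene Scd1 (19.5 ± 2.91, 13.8 ± 0.931 and 19.98, -0.46, 0.0377) were the other 2. Of 28 genes of lipid uptake and storage the lipoprotein receptor gene Lrp1 (2.07 ± 0.267, 0.543 ± 0.208 and 0.562, -0.9966, 0.00181) and the triglyceride synthase gene Dgat2 (5.77 ± 0.470, 3.03 ± 1.26 and 3.92, -0.79, 0.0485) fell. Lrp1 passed the filter through HET alone. Of 36 genes of fatty acid activation and oxidation 0 were called by limma, with 2 at unadjusted p under 0.05 and a median of 0.05.

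Apart from those of Fabp5 and Lrp1, each of these lipid calls ended in fits with 1 library left out. That of Lrp1 held in 16 alternatives, none of which left out a HET library. With 1 library left out each of the 3 lists with falls had as few as 0. For lipid uptake and storage this was without a HET library, where 27 genes were tested and Lrp1 was not. Leaving out HET 2, HET 3 or KO 1 ended that of Ppard (up to 0.0782), and HET 3 or KO 3 that of Srebf1 (up to 0.0608). Those of Abcg1, Rara, Lss, Scd1 and Dgat2 ended in 9 to 14 alternatives each, among them without HET 2, HET 3, KO 1, KO 3 or WT 2 (up to 0.206, 0.235, 0.144, 0.131 and 0.206). Hmox1, the heme-degrading stress enzyme, fell from 41.5 ± 4.36 to 25.6 ± 3.85 FPKM, with 39.6 in WT (-0.68, 0.00767, and up to 0.0589 without HET 2 or HET 3), and was the single call among 24 metal and iron genes.

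Genes that rose were fewer. Ly6k on chromosome 15, which encodes a small surface protein related to Ly6 antigens, was at 3.46, 4.61 and 3.29 FPKM in HET and 20.7, 21.7 and 20.6 in KO, with 0.281, 0.255 and 0.328 in WT. The 3 genotypes did not overlap, and the KO minus HET log2 change was 2.21 ± 0.11 (limma adjusted p = 2.66e-06). Capn11, a gene of the calpain family of calcium-activated proteases, was at 0.390, 0.340 and 0.379 FPKM in HET, 2.44, 2.72 and 2.74 in KO and 0, 0.0182 and 0.0410 in WT (1.41 ± 0.10, 2.37e-05). Slc15a2, a peptide transporter gene, was at 0.533, 0.433 and 0.406 in HET, 2.65, 2.64 and 3.06 in KO and 0.369, 0.589 and 0.380 in WT (1.38 ± 0.11, 6.22e-05). Ly6k and Capn11 thus had HET between WT and KO, while for Slc15a2 the HET and WT values overlapped. Capn11 and Slc15a2 passed the filter through KO alone. They could not be fitted with a KO library left out or with the filter at an FPKM of 5. Their calls held in the other 16 of 20 alternatives, which cannot show whether they rest on a single KO library.

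The next rises had KO above HET, with WT between them or overlapping one of them, except for Krt18, where WT overlapped both. Pcp4l1, a gene of a small calmodulin-related peptide, was at 5.69, 5.37 and 5.09 FPKM in HET and 11.4, 16.5 and 11.7 in KO, with 8.30 in WT (1.14, limma adjusted p = 0.000727). The endothelial adhesion receptor gene Adgrl4 was at 6.55, 8.69 and 9.78 in HET and 17.9, 21.4 and 18.3 in KO, with 11.3 in WT (1.13, 0.00224). Apobec3, a DNA-editing enzyme that restricts retroviruses, was at 18.4 ± 0.370 in HET, 33.5 ± 0.583 in KO and 20.98 in WT (0.83, 0.000193). Smpdl3a, a phosphodiesterase gene, was at 2.18 ± 0.181, 4.54 ± 0.0177 and 2.34 (0.81, 0.00536). The keratin gene Krt18 (0.817, 2.37 and 1.47, 0.91, 0.0346), the gluconeogenic enzyme gene Fbp1 (0.874, 2.35 and 1.10, 0.81, 0.0466) and the apolipoprotein gene Apoc1 (0.959, 2.39 and 1.67, 0.80, 0.0230) rose from low levels. Calls of these 3 ended without HET 3, KO 2 or KO 3, among others, and with no filter (up to 0.168, 0.181 and 0.117).

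In the hematopoietic stem cell list 3 of 32 genes rose and 1 fell (limma, median 0.19, and 9 higher and 1 lower at unadjusted p under 0.05, with 0.591% of all genes rising). Hlf, a transcription factor of stem and early progenitor cells, was at 0.551, 0.873 and 0.571 FPKM in HET, 2.63, 2.84 and 2.42 in KO and 0.561, 0.945 and 0.688 in WT (1.13 ± 0.12, adjusted p = 0.000510). It passed the filter through KO alone. Mecom, another stem cell transcription factor, was at 4.65, 4.64 and 5.61 in HET, 9.22, 8.32 and 9.23 in KO and 7.99, 7.23 and 5.99 in WT (0.74 ± 0.11, 0.00490). Pdzk1ip1, a membrane protein gene, was at 10.3, 12.4 and 8.12 in HET, 20.9, 17.8 and 20.1 in KO and 13.8, 15.4 and 15.3 in WT (0.89 ± 0.13, 0.00313). For Mecom and Pdzk1ip1 the WT libraries lay between HET and KO, and KO against WT, which shares the KO libraries and called 2.94% of all genes, did not pass (adjusted p = 0.164 and 0.131). The antiviral gene Ifitm3 fell from 223 ± 8.75 to 159 ± 4.47, with 229.7 in WT (-0.48, 0.0296), and not without any one HET or KO library, with no filter or with median-ratio size factors (up to 0.144). The receptor gene Kit was at 21.2, 23.8 and 25.0 in HET, 29.1, 31.7 and 30.0 in KO and 28.2, 23.1 and 18.7 in WT (0.36, 0.198), and Cd34 at 79.5 in HET, 101 in KO and 96.5 in WT (0.33, 0.170). Without Hlf 2 of 31 genes rose in the main fit. The count of rises was 5 without WT 1. Without any one KO library it was 2 of 31 tested, since Hlf did not pass the filter there.

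Of 34 genes of the leukemia stem cell program 2 rose and 0 fell (limma, median 0.07, with 0.591% of all genes rising). The count of rises was 1 without any one HET or KO library and 4 without WT 1. Pbx3, a HOX cofactor, was at 6.18, 5.03 and 5.55 FPKM in HET, 9.13, 9.08 and 9.14 in KO and 5.02, 5.61 and 5.18 in WT (0.62 ± 0.09, adjusted p = 0.00389). Flt3, a receptor kinase of progenitors, was at 1.12, 1.68 and 1.64 in HET, 2.71, 2.80 and 2.67 in KO and 1.63, 1.37 and 1.18 in WT (0.60 ± 0.12, 0.0232). In both genes KO stood above the other genotypes, which overlapped. The call of Flt3 ended without any one HET or KO library and after rescaling to TPM (up to 0.0946). The HOX partner Meis1 was at 32.9 in HET, 41.2 in KO and 39.3 in WT (0.31, 0.309, and 0.0379 without WT 1). Of 11 genes of MHC class II and dendritic cells 2 rose, Flt3 and H2-Ob, where 0.591% of all genes rose. H2-Ob, a subunit that tempers peptide loading, went from 25.5 ± 4.02 to 39.1 ± 0.140, with 29.1 in WT (0.61, 0.00767). In this list 1 gene rose without any one HET or KO library and 4 rose without WT 1 or WT 3. The platelet adhesion receptor gene Selp rose from 12.5 ± 0.733 to 21.2 ± 0.101, with 13.3 in WT (0.72, 0.000591), as the single call among 19 megakaryocyte and platelet genes. The cyclin-dependent kinase inhibitor gene Cdkn2c rose from 24.1 ± 1.07 to 41.6 ± 2.12, with 26.1 in WT (0.76, 0.000193), as the single call among 32 CDK inhibitors, D-type cyclins and p53 targets.

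Immediate early genes, which cells induce soon after a stimulus, had 3 of 32 members higher in KO and 0 lower (limma, with 0.591% of all genes rising). Their median was 0.18, and 9 were higher and 1 lower at unadjusted p under 0.05. The AP-1 gene Fos was at 249.8, 245 and 313 FPKM in HET, 347, 419.6 and 403 in KO and 75.3, 96.1 and 79.2 in WT. Its HET values stood above WT, and KO above both (KO minus HET 0.54 ± 0.12, adjusted p = 0.0402). The nuclear receptor gene Nr4a1 had the same order at 2.82, 3.18 and 3.97 in HET, 5.02, 6.01 and 6.57 in KO and 1.93, 2.06 and 2.11 in WT (0.67 ± 0.12, 0.0141). The stress phosphatase subunit gene Ppp1r15a had HET lowest, at 64.4, 63.5 and 61.9, with 78.6, 79.7 and 84.7 in KO and 90.2, 90.3 and 90.9 in WT (0.35 ± 0.06, 0.0121). Fosb (0.38, 0.317) and Dusp1 (0.37, 0.318) were not called. The count was 0 without HET 2 or KO 3, 1 without HET 1 and 5 without WT 1. The call of Fos ended without HET 1, HET 2, KO 2 or KO 3, with no filter and under all 3 other scalings (up to 0.187). That of Nr4a1 ended without HET 1, HET 2 or KO 3 (0.0879) and that of Ppp1r15a without HET 2, HET 3 or KO 3 (0.0949).

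Ribosomal protein genes were higher in KO than in HET by small amounts, with KO near WT and HET below both. The list median on the log2 scale was 0.20 for KO minus HET, -0.21 for HET minus WT and -0.02 for KO minus WT. For 41 of 52 all KO values lay above all HET values, where this held for 11.2% of all tested genes. By limma 1 was called, Rpl3, at 1818, 1859 and 1766 FPKM in HET, 2221, 2421 and 2210 in KO and 1974, 1992 and 2049 in WT (0.33 ± 0.06, adjusted p = 0.0191), and 30 genes were at unadjusted p under 0.05. The median was 0.07 after quantile normalization, where 5 were called. The call of Rpl3 ended there, with median-ratio size factors, and without any one HET library, KO 1 or KO 3 (up to 0.138).

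By limma 0 members were called in the lists of IL-6 and Stat3 signalling (21 genes, 3 at unadjusted p under 0.05), DNA methylation enzymes (13, 1), eosinophil genes (8, 4), mast cell and basophil genes (15, 3), interferon-stimulated genes (23, 3) and erythroid genes (22, 5). The same held for nuclear encoded respiratory chain genes (40, 2), ribosome biogenesis factors (40, 2), DNA replication (43, 4), mitosis (42, 4) and clustered histones (47, 5). B cell genes (2, 1) and T and NK cell genes (5, 4) also had 0 calls. Of 4 stromal, endothelial and adipocyte markers the growth factor receptor gene Pdgfrb fell (2.28 FPKM in HET, 1.21 in KO and 1.66 in WT, -0.57, 0.0358, and up to 0.163 without any one HET or KO library or WT 2 or with no filter). With 1 library left out each of these lists of 0 calls had at most 2 falls and at most 1 rise. The eosinophil list had a median of -0.47, which was -0.16 without HET 1 and -0.72 without HET 2. Its ribonuclease gene Ear2 was at 34.6, 10.3 and 15.6 FPKM in HET, 4.24, 6.49 and 3.53 in KO and 13.5, 24.1 and 32.7 in WT (-1.74, adjusted p = 0.0730, 0.0296 without WT 1, and -1.28, 0.117 without HET 1), with HET 1 above the other HET libraries.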

How the data were processed

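Total RNA was extracted with TRIzol and made into libraries with the VAHTS Universal V6 kit, per the labels' protocols. The build is mm10, per the submitters' processing notes, whereas for aligner, counter, annotation and strandedness the sources used here give no name. The authors deposited FPKM values per gene. FPKM is scaled to the total of each library, so a few abundant genes can move the rest. Depth was estimated for the KO and HET libraries from the steps of low values, of which 80% to 86.2% came within 0.1 of whole fragments, too few for a count test. Library pairs with identical values numbered 0 of 36.

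Genes were placed on chromosomes through RefSeq (GRCm38.p6). X, Y and mitochondrial genes entered the fit and are not counted. limma 3.58.1 in R 4.3.3 was fitted to log2(FPKM + 1) over the 9 in vitro libraries with 1 mean per genotype and a spread shared by the 3 genotypes, with trended and robust moderation. P-values were adjusted by Benjamini-Hochberg over all 10877 genes past the filter, at a threshold of 0.05. In parentheses that give 2 values after the FPKM, the first is the KO minus HET log2 change, with its SE where shown, and the second the limma adjusted p. The fit was tested on simulated data.

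The members and the 39 gene lists were chosen with earlier results of these data known. Genes were named by rule, as Fabp family members, the 12 largest rises and 12 largest falls with a mean FPKM of at least 2 in either group and no overlap, and up to 4 called members of each list. The rule gave 65 genes. Other called members, uncalled members that complete a pathway, and the stefin cluster were named after their values were seen. Predicted genes, pseudogenes and receptor segments, 14 of those called, are not named. Alternatives were other pseudocounts, filters, scalings and fits, and each library left out. The 9 libraries sorted directly from bone marrow are not used here. One result among the named genes is not reported here.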

Additional observations from a re-analysis of the deposited data

How the results depend on the processing

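Of the 65 genes named by rule 39 kept their limma call in every alternative in which they could be tested, 26 lost it in at least 1 and 0 changed sign. Genes that passed the filter through 1 genotype alone could not be tested with a library of that genotype left out. The 204 calls (62 higher and 142 lower) became 130 (41 and 89) with the filter at an FPKM of 5 and 301 (98 and 203) with only KO and HET libraries in the fit. With 1 library left out they ranged from 68 to 331, with 24 to 106 higher and 41 to 230 lower. The share of calls that were higher in KO was 30.4%, 38.7% after quantile normalization and 23.6% after rescaling to TPM. Fitting the replicate number as a block gave 149 calls, 45 higher and 104 lower, and among the named genes it lacked those of Krt18, Fbp1, Ppp1r15a, Ccl2, Flt3, Ifitm3, Pdgfrb, Abcg1, Rara, Lss, Scd1, Dgat2, Rpl3, Eno1, Pkm, Ldha, Ero1a and Ctsc. The labels do not say that a number pairs the libraries. The deviations of same-numbered KO and HET libraries correlated at 0.115, 0.185 and 0.0511, so the numbers were not taken as pairs, although each library correlated best with its own number. The Fabp4 difference ranged from -0.0338 to 0 FPKM with 1 library left out. Among genes not called, the log2 value changed sign for Prtn3 (0.000242 with median-ratio size factors, and -0.291 to 0.142 with 1 library left out), Ctsg (-0.067 to 0.215 with 1 library left out, lowest without KO 2), Spi1 (-0.0404 to 0.158, lowest without KO 2) and Cebpa (-0.143 to 0.0807, highest without HET 1), and the cause was not tested. An estimated depth of 30.2 to 35.1 M fragments still left Fabp4 at or near 0, so its loss could not be read here.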

Other observations

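Near Fabp4 on chromosome 3, in a window of 10 Mb on each side chosen after the values were seen, 28 genes were tested and 6 were called by limma, all 6 lower in KO, where 1.35% of all genes were called lower. Of these, Sirpb1a, Sirpb1b and Gm5150 passed the filter through HET alone, and 3 of 25 were called lower without them. The predicted gene Gm5150 was at 1.16 FPKM in HET, 0.165 in KO and 0.2 in WT (-0.89, adjusted p = 0.000758). Beside it and Fabp5, the others called were 4 receptor genes of the Sirp family. Sirpb1c was at 5.66, 6.04 and 6.35 FPKM in HET, 1.47, 0.873 and 1.86 in KO and 1.001, 0.906 and 1.98 in WT (-1.57, adjusted p = 0.000735). Sirpb1b (1.41 in HET, 0.29 in KO and 0.318 in WT, -0.92, 0.00718) fell too. So did Sirpb1a (1.30, 0.286 and 0.231, -0.85, 0.0191) and Sirpd (2.57, 0.815 and 1.36, -0.97, 0.0397). In mean FPKM HET stood above KO and WT for Gm5150 and the 4 Sirp genes. For Fabp5 every KO value was below every HET and WT value. The call of Sirpd ended without WT 2 or any one HET or KO library, with no filter and after quantile normalization (up to 0.173), and that of Sirpb1a without KO 3 or with a pseudocount of 0.1 (up to 0.0949). These 4 genes are close relatives, so reads may be split between them. Sirpb1a is also counted in the receptor list above. Why these genes near Fabp4 fell was not tested.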
